A study of Homo sapiens with 6 samples.

Results

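Ribosome footprints of 10700 genes, of 19669 named genes in the table, were compared between 2 libraries of the renal carcinoma line 786-O, labelled PHYHD1-WT and EV (empty vector). Members were all named genes at 1 TPM (a transcript level scaled to gene length and to a fixed library total) or more in at least one of these libraries. The emphasis lies on the 6320 that reached 10 TPM and do not carry a readthrough name, a hyphenated name that joins neighbouring genes. These are called abundant below, by the larger of the 2 values, and 1560 of them reached 100 TPM.

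The series held 1 RNA-seq and 1 Ribo-seq library for each of EV, WT and MT, 6 in all. 786-O is an established line of clear cell renal cell carcinoma that has lost functional VHL, through which hypoxia-inducible factors are normally targeted to the proteasome, so every group here shares that loss. The sources differ on WT: the series title lists PHYHD1-WT and, as MT, a PHYHD1 without 107 to 130, whereas the design text makes WT the untreated cells and MT the cells that overexpress PHYHD1. Neither the vector and its promoter nor the clonality of the lines is stated. Cells grew in 3 dishes per condition, and whether a library pools them is not stated. PHYHD1 footprints stood at 0 TPM in EV, 222 TPM in WT and 905 TPM in MT, so the library labelled WT does not look like untreated cells, and labels are used below as deposited.

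In ribosome profiling, nuclease digests the mRNA that ribosomes do not cover, and the protected fragments show how densely each coding sequence is occupied. Footprint density depends on how much mRNA there is and on how many ribosomes sit on each molecule. It also depends on how long they dwell there. PHYHD1 belongs to the dioxygenases that use iron and 2-oxoglutarate, a family that hydroxylates or demethylates proteins, nucleic acids and lipids. Its relative PHYH hydroxylates phytanoyl-CoA in peroxisomes.

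With 1 library per label no difference has a replicate check and no test could be made, so each comparison is between libraries and not between conditions. The ratio is log2((WT + 1)/(EV + 1)), a scale on which differences of low genes are understated. "Higher" and "lower" are used only where this ratio reached 1 or -1, a 2-fold rule of size. In bulk libraries, fewer cells of a type and less RNA per cell cannot be told apart. The line's mesenchymal marker VIM (1691 and 1662 TPM in EV and WT) and the renal lineage factor PAX8 (98.8 and 74.5 TPM) were present in both libraries. Of 10 markers listed for renal carcinoma lines 9 reached 1 TPM. The exception was CA9 (0 and 0.077 TPM), and NDUFA4L2 was low (2.02 and 1.11 TPM). The proximal tubule receptor LRP2 was at 0, and of 17 proximal tubule markers 4 reached 1 TPM. Of 8 immune markers, 6 were at 0 in both, among them PTPRC and CD3E, and the summed level was 0.620 TPM (EV) and 0.687 TPM (WT). Of 8 endothelial and fibroblast markers 5 were at 0, among them PECAM1, VWF and DCN, with sums of 3.53 and 3.21 TPM.

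Of the 10700 genes 186 were higher in WT (1.74%) and 173 were lower (1.62%), with a median log2 ratio of 0.03. Among abundant genes 57 were higher (0.902%) and 29 were lower (0.459%), with a median of 0.03 and 54.3% of ratios above 0. Most of the called genes, in each direction, reached 10 TPM only in the library where they are high. Examples are SCN8A (0.841 TPM in EV) and RREB1 (1.72 TPM in WT). The spread narrowed with the level of the better-covered library. The central 95% of genes between 1 and 10 TPM lay between -1.07 and 1.04, and 6.16% of the 4367 genes passed the rule. Between 10 and 30 TPM the range was -0.77 to 0.85, with 2.56% past the rule. Between 30 and 100 TPM it was -0.56 to 0.64, with 0.834% past it. At 100 TPM or more it was -0.48 to 0.47, and 0.192% passed, which is 3 of 1561 genes. Counts of list members past the rule given below, 0 included, are to be read beside these shares. Just inside the rule stood the chromatin remodeller gene CHD7 (15.6 TPM in EV, 7.31 TPM in WT) and TMEM68 (26.4 and 53.9 TPM). Just outside it were TCF19 (11.5 and 5.28 TPM) and TSC22D3 (18.9 and 38.6 TPM).

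**Figure D1:**
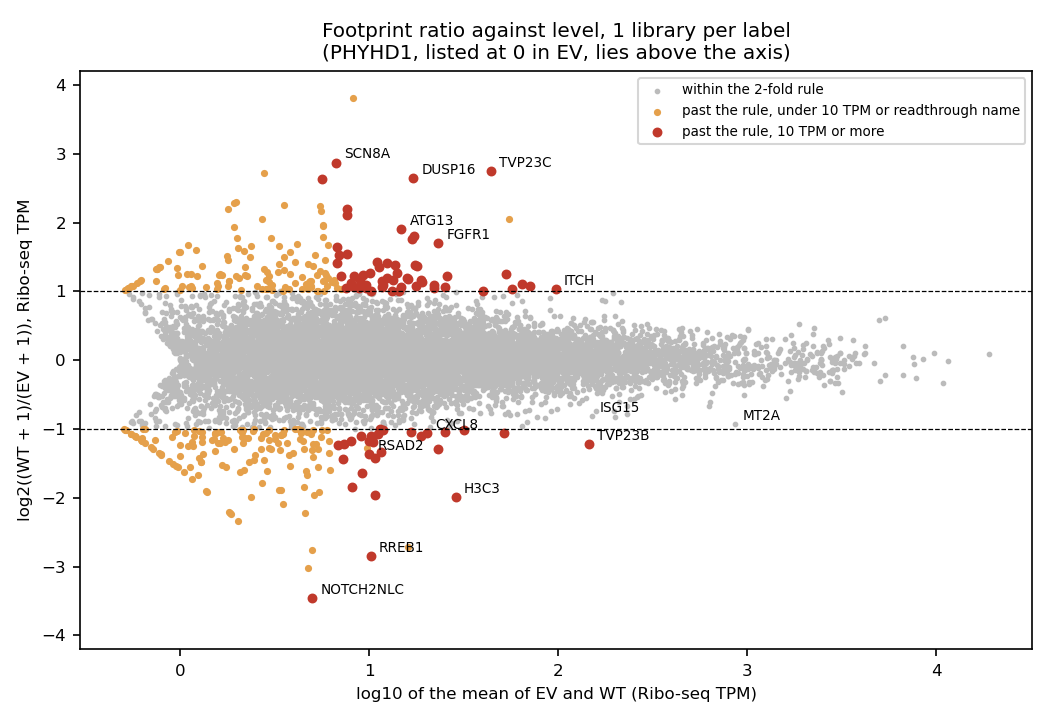
Each point is 1 of the 10700 genes; the horizontal axis is the log10 of the mean TPM of EV and WT, the vertical axis the log2 ratio, and dashed lines mark the 2-fold rule. The cloud narrows from left to right, and the genes past the rule at 10 TPM or more, in red, include 57 above and 29 below.

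Besides PHYHD1, the abundant genes with the highest ratios came from unrelated classes. SCN8A, a voltage-gated sodium channel of excitable cells, stood at 0.841 TPM in EV, 12.5 TPM in WT and 1.55 TPM in MT (log2 ratio of WT to EV 2.87). DUSP16, a phosphatase that acts on JNK and p38 kinases, stood at 3.98, 30.3 and 3.64 TPM in the same order (2.65). CABLES1, a regulator of cyclin-dependent kinases, was at 0.844, 10.4 and 0.850 TPM (2.63). In these 3 genes WT stands alone, with MT close to EV. Their mRNA was near even between the libraries, at 1.25 and 1.36 FPKM (the scale of the RNA-seq values, also corrected for length) for SCN8A, 6.06 and 5.05 FPKM for DUSP16, and 5.21 and 6.26 FPKM for CABLES1.

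A second group of higher genes had MT values between EV and WT. ATG13, a subunit of the kinase complex that starts autophagy, was at 5.64 TPM in EV, 24.0 TPM in WT and 17.1 TPM in MT (1.91). NCOA2, a coactivator of nuclear receptors, was at 7.15, 27.4 and 16.7 TPM (1.80). The golgin gene GCC2 stood at 7.08, 26.5 and 14.2 TPM (1.77). FGFR1, a receptor tyrosine kinase for fibroblast growth factors, stood at 10.4, 36.0 and 23.8 TPM (1.70), with mRNA at 23.4 and 24.6 FPKM. APPL2, an endosomal adaptor, WDR45, which acts in autophagosome formation, TUBD1, or delta tubulin, and COA8, a mitochondrial factor, had ratios of 1.38, 1.42, 1.42 and 1.37. CCP110, which caps centrioles, stood at 3.23 TPM in EV, 10.2 TPM in WT and 3.58 TPM in MT (1.41). FAM120AOS, which overlaps FAM120A, was at 3.08, 10.8 and 4.74 TPM (1.53).

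The genes with the highest ratios included zinc finger genes. ZNF525 (2.08 TPM in EV, 13.2 TPM in WT), ZNF417 (2.25 and 13.02 TPM), ZNF595 (3.42 and 11.8 TPM), ZNF12 (9.23 and 25.8 TPM) and the related ZBTB20 (2.76 and 10.8 TPM) were all higher. Of 72 abundant genes with a ZNF name 7 were higher and 0 lower, beside 0.902% and 0.459% of all abundant genes, and their median of 0.03 is close to that of all abundant genes. Over all 355 measured genes with a ZNF name 16 were higher and 7 lower, beside 1.74% and 1.62% of all genes, with a median of 0.05. No test was made of these counts. The zinc finger genes named here were all under 10 TPM in EV and counted as abundant through WT alone. The count of higher abundant ZNF genes therefore depends in part on the library where they are high. Members of this family share similar coding sequence.

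**Figure D2:**
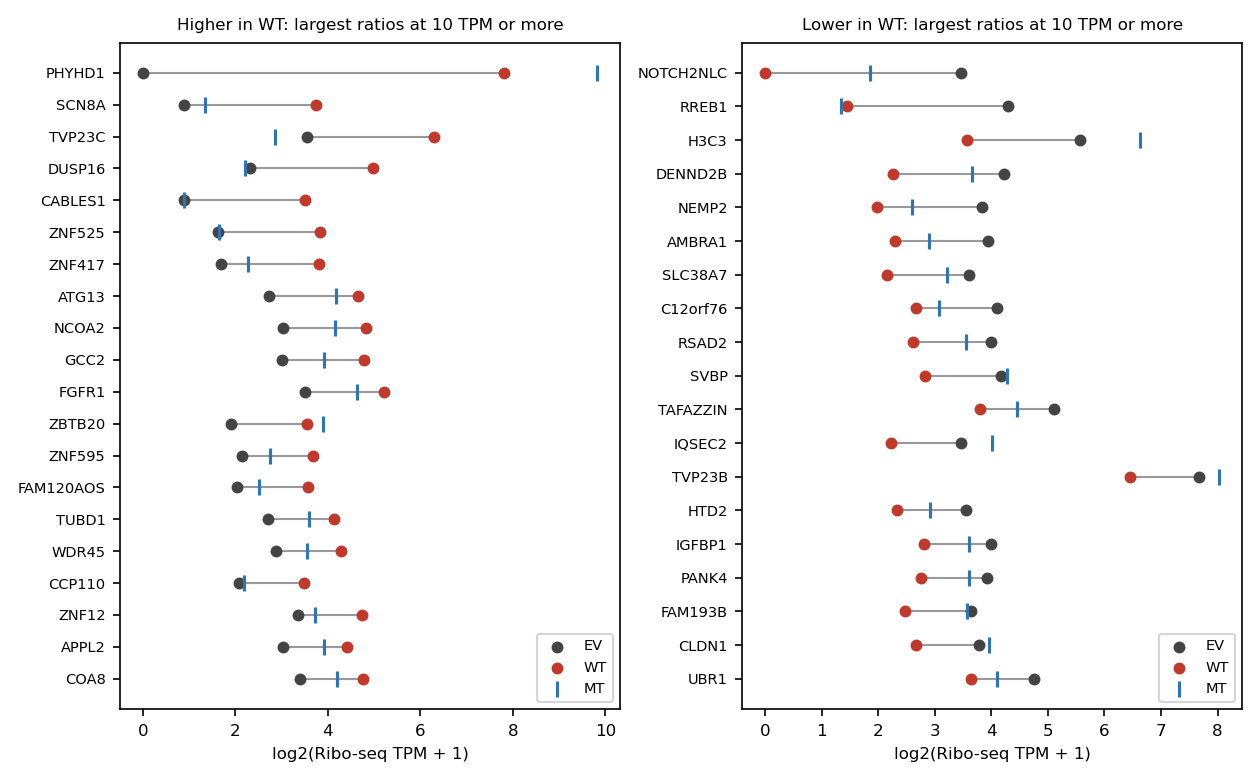
Footprint levels, as log2(TPM + 1), of abundant genes with the highest and the lowest ratios (up to 20 each way); grey points are EV, red points WT and blue ticks MT, 1 library each. PHYHD1 starts from 0 in EV, and for SCN8A, DUSP16 and CABLES1 the MT tick lies beside the EV point.

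The lower genes were again of mixed function. RREB1, a zinc finger factor downstream of Ras signalling, stood at 18.7 TPM in EV, 1.72 TPM in WT and 1.54 TPM in MT (-2.85), so that EV stands alone. Its mRNA was 7.22 FPKM in EV and 8.17 FPKM in WT. DENND2B, an exchange factor for Rab proteins, was at 17.7, 3.80 and 11.6 TPM (-1.96), and AMBRA1, a scaffold of autophagy and of a cullin ubiquitin ligase, at 14.3, 3.91 and 6.43 TPM (-1.64). The amino acid transporter gene SLC38A7 stood at 11.1, 3.47 and 8.28 TPM (-1.44).

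The other lower genes also differ in function. TAFAZZIN, the enzyme that remodels cardiolipin, stood at 33.4 TPM in EV, 13.02 TPM in WT and 20.8 TPM in MT (-1.30). SVBP, the partner of the vasohibins that remove tyrosine from tubulin, was at 16.9, 6.12 and 18.4 TPM (-1.33), and the tight junction gene CLDN1 at 12.7, 5.37 and 14.7 TPM (-1.11). For SVBP and CLDN1, WT is the low library and MT lies slightly above EV. IGFBP1, a secreted binder of insulin-like growth factors, was at 14.98, 6.02 and 11.2 TPM (-1.19). UBR1, a ligase that recognises destabilising N-terminal residues, stood at 26.0, 11.5 and 16.2 TPM (-1.10). NEMP2, C12orf76, IQSEC2, HTD2, PANK4 and FAM193B were also among the lowest ratios, between -1.85 (NEMP2) and -1.17 (FAM193B). RSAD2, H3C3, TVP23B and NOTCH2NLC, which belong here too, are described below.

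The mRNA ratios of most called genes did not reach the 2-fold rule. Of the 57 abundant genes that were higher, 27 had an mRNA log2 ratio above 0 and 30 below, with a median of -0.02. After adding 1 FPKM to both values, 53 of them differed less than 1.5-fold in mRNA, and low values look more even on this scale. PHYHD1 and C21orf91 alone also passed the 2-fold rule in mRNA, the latter at 3.83 and 9.30 FPKM; it is named after its value was seen. Of the 29 lower genes 28 had measurable mRNA. Their median mRNA ratio was -0.02, with 13 above 0 and 15 below, and 0 passed the rule. After adding 1 FPKM to both values, 27 of them differed less than 1.5-fold. The share of all abundant genes past the rule in mRNA is not given here, so these counts lack a background. The called genes were picked by their footprint ratio, and whether footprints and mRNA differ was not tested. The highest mRNA ratio among the lower genes, 0.69, belonged to the chemokine gene CXCL8, which had footprints of 27.8 and 12.8 TPM in EV and WT on mRNA values of 0.373 and 1.21 FPKM. Levels of the called genes were modest. The median of the larger value was 18.7 TPM for those higher, PHYHD1 left out, and 15.6 TPM for those lower.

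Gene models limit what can be read from single names. Of the 86 abundant genes past the rule 85 were found in RefSeq, and 21 of those overlap another protein-coding gene there, on either strand. Examples are ATG13 with HARBI1, NEMP2 with MFSD6, RSAD2 with CMPK2, SVBP with ERMAP, TAFAZZIN with DNASE1L1 and CABLES1 with SLC35D4. The sources do not say whether the authors' counting used strand, so reads of such pairs may not be assigned with certainty. Among readthrough names, of which 50 reached 1 TPM, 4 passed the rule at 10 TPM or more.

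Summing closely related genes changed the picture for the Golgi protein genes TVP23B and TVP23C. TVP23B stood at 203 TPM in EV, 86.5 TPM in WT and 261 TPM in MT, and TVP23C at 10.7, 77.4 and 6.30 TPM. The readthrough TVP23C-CDRT4 was at 20.9, 89.5 and 11.5 TPM. Each of the 3 passed the rule, TVP23B downward, but their sum was 235 TPM in EV, 253 TPM in WT and 278 TPM in MT (log2 ratio of the sums 0.11). The single names thus differed while the total was nearly even.

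SMN1 and SMN2, which encode the same protein needed for assembly of spliceosomal particles, gave a like result. SMN1 was higher (5.93 TPM in EV, 16.7 TPM in WT), SMN2 stood at 28.7 and 18.2 TPM, and the sums were 34.7 and 34.9 TPM (0.01). In mRNA the split went the other way, with SMN1 at 25.8 and 19.2 FPKM and SMN2 at 17.1 and 29.1 FPKM. NOTCH2NLC was listed at 10.0 TPM in EV and 0 in WT, and NOTCH2NLA at 0 in EV and 5.58 TPM in WT. The 4 NOTCH2NL genes, human-specific partial copies of NOTCH2, summed to 14.03 and 15.3 TPM (0.11). The pair ZNF417 and ZNF587 still passed the rule as a sum, at 10.2 TPM (EV) and 22.8 TPM (WT) (1.09). These groupings were drawn up by hand after the values were seen, and sequence identity was not computed.

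**Figure D3:**
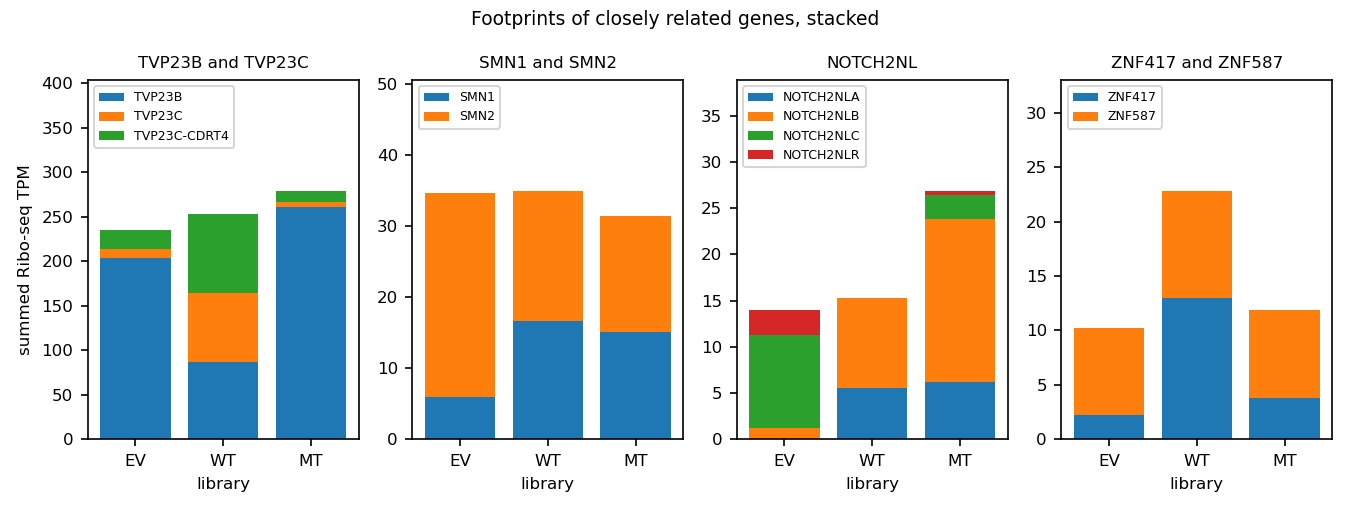
Stacked bars give the summed footprint level, in TPM, of 4 families of related genes in the EV, WT and MT libraries, with 1 colour per gene. For TVP23B with TVP23C and for SMN1 with SMN2 the colours shift between EV and WT while the bar heights stay within a log2 ratio of 0.11, and for ZNF417 with ZNF587 the WT bar is higher.

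Clustered H3 histone genes are also closely related, but no member rose enough to offset those that fell. Only H3C6 had a ratio above 0 (19.3 TPM in EV, 23.5 TPM in WT). H3C3, a replication-dependent H3 gene, stood at 46.5 TPM in EV, 10.9 TPM in WT and 97.7 TPM in MT (-2.00), and H3C11 at 294, 171 and 329 TPM (-0.78). The 11 clustered H3 genes, whose coding sequences are very similar, summed to 10562 TPM (EV) and 9371 TPM (WT) (-0.17). Over 55 measured replication-dependent histone genes the median was -0.08, with 3 lower (H3C3, H2BC3 and H4C13) and 0 higher, beside 1.62% and 1.74% of all genes.

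At high footprint levels, where the spread is narrowest, the rule was passed by PHYHD1, TVP23B and ITCH. ITCH, a ubiquitin ligase of the NEDD4 family, stood at 63.3 TPM in EV, 131 TPM in WT and 30.4 TPM in MT (1.04), so MT lies at the other side of EV. Its mRNA stood at 38.1 and 39.5 FPKM. MRPL58, a hydrolase that rescues stalled mitochondrial ribosomes, came close with 132 TPM in EV, 260.3 TPM in WT and 162 TPM in MT (0.98). ERI1, an exonuclease that trims histone mRNA ends and other RNAs, was at 62.5, 118 and 53.4 TPM (0.91). NSA2, which matures the large ribosomal subunit, was at 120.1, 222 and 159.8 TPM (0.88), and the HSP90 cochaperone gene FKBP4 at 154, 279 and 176 TPM (0.85). GABARAPL1, a ubiquitin-like protein coupled to autophagosome membranes, stood at 126, 229 and 118 TPM (0.86). The protease that processes it, ATG4B, stood at 68.4, 114 and 74.5 TPM (0.72).

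Below 0 at these levels were MT2A at 1128 TPM in EV, 589.7 TPM in WT and 975 TPM in MT (-0.93), and IFI6, an interferon-induced protein, at 110.1, 61.1 and 100.3 TPM (-0.84). MT1E stood at 256, 144 and 212 TPM (-0.83), and ISG15, a ubiquitin-like protein induced by interferon, at 192, 109 and 167 TPM (-0.81). NDUFA7, a complex I subunit, was at 199, 118 and 159.9 TPM (-0.74) while its mRNA was at 19.8 FPKM in EV and 29.8 FPKM in WT. GGH, HSBP1 and PIGT had ratios of -0.74, -0.74 and -0.72. None of these is past the 2-fold rule. They were picked as the lowest ratios at 100 TPM or more, so each lies outside the central 95% of such genes by that choice.

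Metallothioneins, small proteins that bind zinc and copper, formed the list with the lowest median. All 5 measured members had ratios below 0, with a median of -0.57, and 0 passed the rule. MT1X stood at 66.8 TPM in EV, 48.8 TPM in WT and 61.9 TPM in MT, and MT1F at 21.3, 14.1 and 17.1 TPM. The summed level was 1475 TPM in EV, 799 TPM in WT and 1269 TPM in MT. Their mRNA had a median log2 ratio of 0.13, with MT2A at 279 and 356 FPKM and MT1E at 50.6 and 83.2 FPKM, so footprints and mRNA lay on opposite sides for these 2 genes. Metallothionein genes resemble each other closely, so single values are less certain than their sum.

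Interferon effectors are antiviral proteins, and many of their genes carry interferon-stimulated response elements. Of 45 measured, 34 had ratios below 0 and 11 above, with a median of -0.28 beside 0.03 for all genes. DDX60L, OAS2, RSAD2, OAS1 and XAF1, 5 of the 45, were lower and 0 were higher, beside 1.62% and 1.74% of all genes. RSAD2 (viperin) was the abundant one, at 14.9 TPM in EV, 5.14 TPM in WT and 10.7 TPM in MT (-1.37), on mRNA of 4.72 and 4.53 FPKM. The others were under 10 TPM, with DDX60L at 3.88 TPM in EV, 0.745 TPM in WT and 4.10 TPM in MT, and OAS1 at 2.61, 0.575 and 2.07 TPM. The summed level of the effectors was 1972 TPM in EV, 1502 TPM in WT and 1858 TPM in MT. Their mRNA had a median of -0.10, with 31 of 42 below 0.

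The sensors and signalling proteins that drive these genes had a median nearer to 0, and the difference between the lists was not tested. Of 21 measured, 9 lay above 0 and 12 below, with a median of -0.03. IRF3, a transcription factor that switches on interferon genes, stood at 38.5 TPM (EV) and 26.8 TPM (WT). The receptor chain gene IFNAR2 was lower, at 5.01 TPM in EV, 1.60 TPM in WT and 2.99 TPM in MT.

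**Figure D4:**
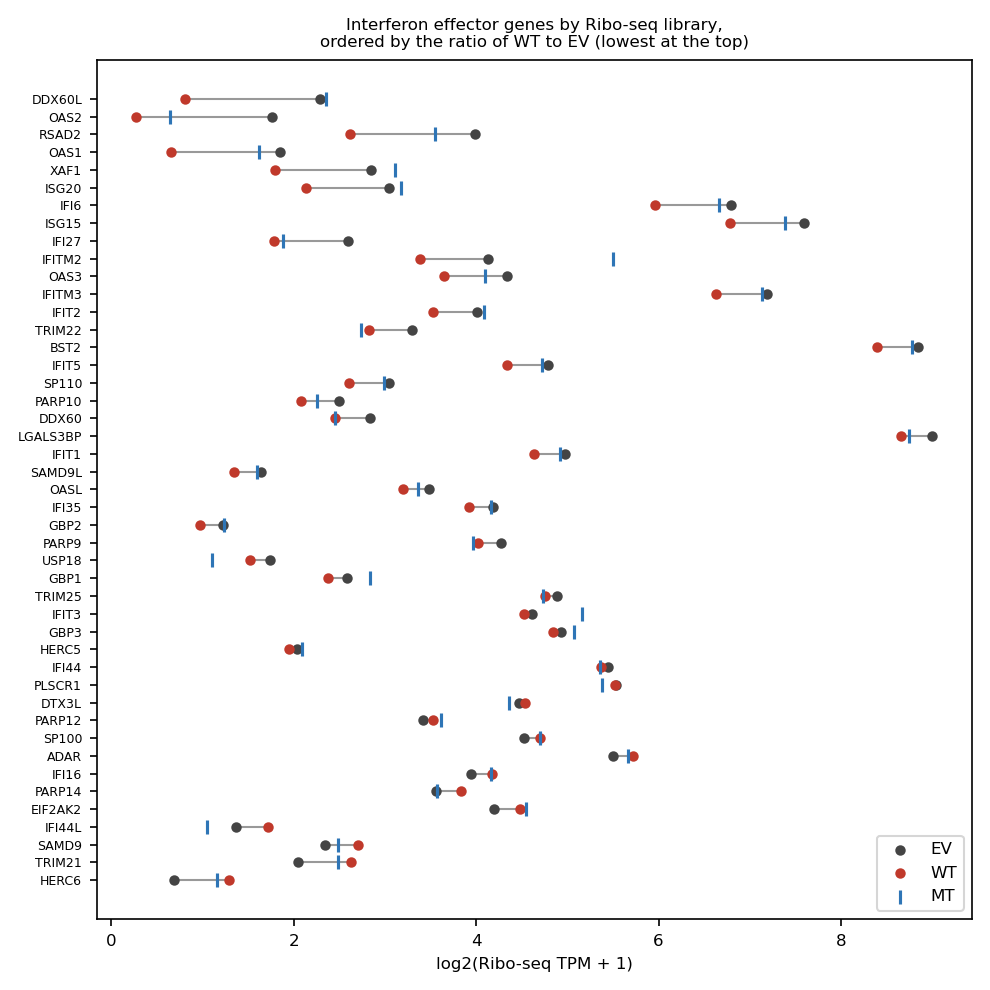
Footprint levels, as log2(TPM + 1), of the 45 measured interferon effectors in EV (grey), WT (red) and MT (blue ticks), ordered by ratio with the lowest at the top. The WT point lies left of the EV point in 34 of 45 rows, and for ISG15 and IFI6 the MT tick lies nearer to EV.

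Promoter sequence is shown for RSAD2, ISG15 and IFI6, the effectors with the largest offsets at 10 TPM or more, because many effector genes share this element. The motif searched was GAAA, any 2 bases, GAAA, on either strand, in RefSeq promoters of 300 bases (250 before the start). It occurs in 27 of the 37 effectors that have a listed promoter (73.0%). The shares were 342 of 8863 measured genes (3.86%) and 1195 of all 27305 genes with a listed promoter (4.38%). A gene with several promoters was scored by the one with most matches, and the stretches shown are from promoters with a match. Each stretch below has 120 bases, from -170 to -51 relative to the RefSeq start (GRCh38.p14), written 5′ to 3′ on the gene's strand with matches in capitals (TTTC marks a match on the other strand). The RSAD2 stretch lies at chr2:6877607-6877726 on the plus strand, ISG15 at chr1:1013327-1013446 on the plus strand, and IFI6 at chr1:27672243-27672362 on the minus strand.
RSAD2: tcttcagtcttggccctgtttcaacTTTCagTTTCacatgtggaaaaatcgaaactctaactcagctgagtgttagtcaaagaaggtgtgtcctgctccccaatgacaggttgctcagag
ISG15: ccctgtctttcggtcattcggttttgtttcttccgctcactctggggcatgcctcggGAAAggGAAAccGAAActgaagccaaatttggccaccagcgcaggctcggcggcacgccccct
IFI6: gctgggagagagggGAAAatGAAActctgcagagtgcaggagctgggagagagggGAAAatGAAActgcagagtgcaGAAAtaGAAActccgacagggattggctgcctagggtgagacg
RSAD2 has 1 match, ISG15 2 that overlap and IFI6 3. Matches were not limited to effectors with ratios below 0. OAS1 and XAF1, which were lower, have 0 matches, whereas EIF2AK2 (ratio 0.28) has 1 and TRIM21 (0.58) has 2. A relation of matches to ratios was not tested. A match is a description of the letters, and no binding was measured here.

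Other surface and immune genes had medians below that of all genes too. Class I antigen presentation genes had 4 of 21 above 0 and a median of -0.21, although B2M stood at 7804 TPM (EV) and 7503 TPM (WT) and the list summed to 13340 and 12774 TPM. At a minimum of 10 TPM this median was -0.05. NF-kappaB pathway and feedback genes had 10 of 27 above 0 and a median of -0.25, with ICAM1 at 94.3 and 69.6 TPM. REL, one of the NF-kappaB subunits, was higher (3.20 and 8.41 TPM). Cytokines and chemokines had 2 of 12 above 0 (-0.18). CXCL8 and CXCL1 were lower, the latter listed at 1.44 TPM in EV and at 0 in WT. IL32 stood at 1077 and 839 TPM and CCL2 at 37.5 and 36.2 TPM.

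Growth factor ligands had 1 of 11 above 0 and a median of -0.34. EREG stood at 85.8 TPM (EV) and 58.8 TPM (WT), VEGFA at 36.3 and 21.9 TPM, and FGF2 at 32.1 and 26.9 TPM, and TGFA had a ratio of -0.53. None passed the rule, and the sum was 238 TPM in EV, 169 TPM in WT and 206 TPM in MT. Their mRNA had a median of 0.11. Receptor kinases had 4 of 14 above 0 (-0.15), with FGFR1 higher and IGF1R lower (4.71 and 1.68 TPM), and MET at 46.0 and 38.2 TPM. Integrin and adhesion genes had 8 of 28 above 0 (-0.14), with the hyaluronan receptor CD44 at 766 and 504 TPM and JUP, or plakoglobin, lower at 6.32 and 0.712 TPM.

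Genes of the G2 and M phases lay on the other side, and are given by role. Of 89 measured, 70 had ratios above 0, with a median of 0.24. Cyclins, kinases and phosphatases had 18 of 21 above 0 and a median of 0.28. Among them CDK1 stood at 241 TPM in EV, 292 TPM in WT and 246 TPM in MT, and CCNB1 (cyclin B1) at 122, 127 and 121 TPM. Spindle motors and microtubule proteins had 24 of 28 above 0 (0.28). PRC1, which bundles microtubules of the central spindle, stood at 196, 234 and 198 TPM, and the list summed to 1455, 1713 and 1431 TPM. Chromosome structure genes had 13 of 14 above 0 (0.26), with TOP2A, the topoisomerase that untangles sister chromatids, at 137, 213 and 148 TPM.

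The remaining roles had lower medians, and differences between roles were not tested. The anaphase-promoting complex and its partners had 4 of 9 above 0 and a median of -0.02, with CDC20 at 224 TPM (EV) and 219 TPM (WT) and UBE2C at 724 and 684 TPM. Kinetochore genes had 11 of 17 above 0 (0.14) and the only members past the rule. KNL1, the outer kinetochore scaffold, was higher, at 6.87 TPM in EV, 16.5 TPM in WT and 15.8 TPM in MT. SKA3, which holds kinetochores to microtubules, was lower, at 70.0, 33.0 and 53.03 TPM. Median mRNA ratios of these roles lay between 0.00 for spindle motors and 0.07 for chromosome structure. S phase genes had 29 of 44 above 0, with a median of 0.05 and 0 past the rule, and PCNA, the sliding clamp, stood at 483 and 488 TPM.

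**Figure D5:**
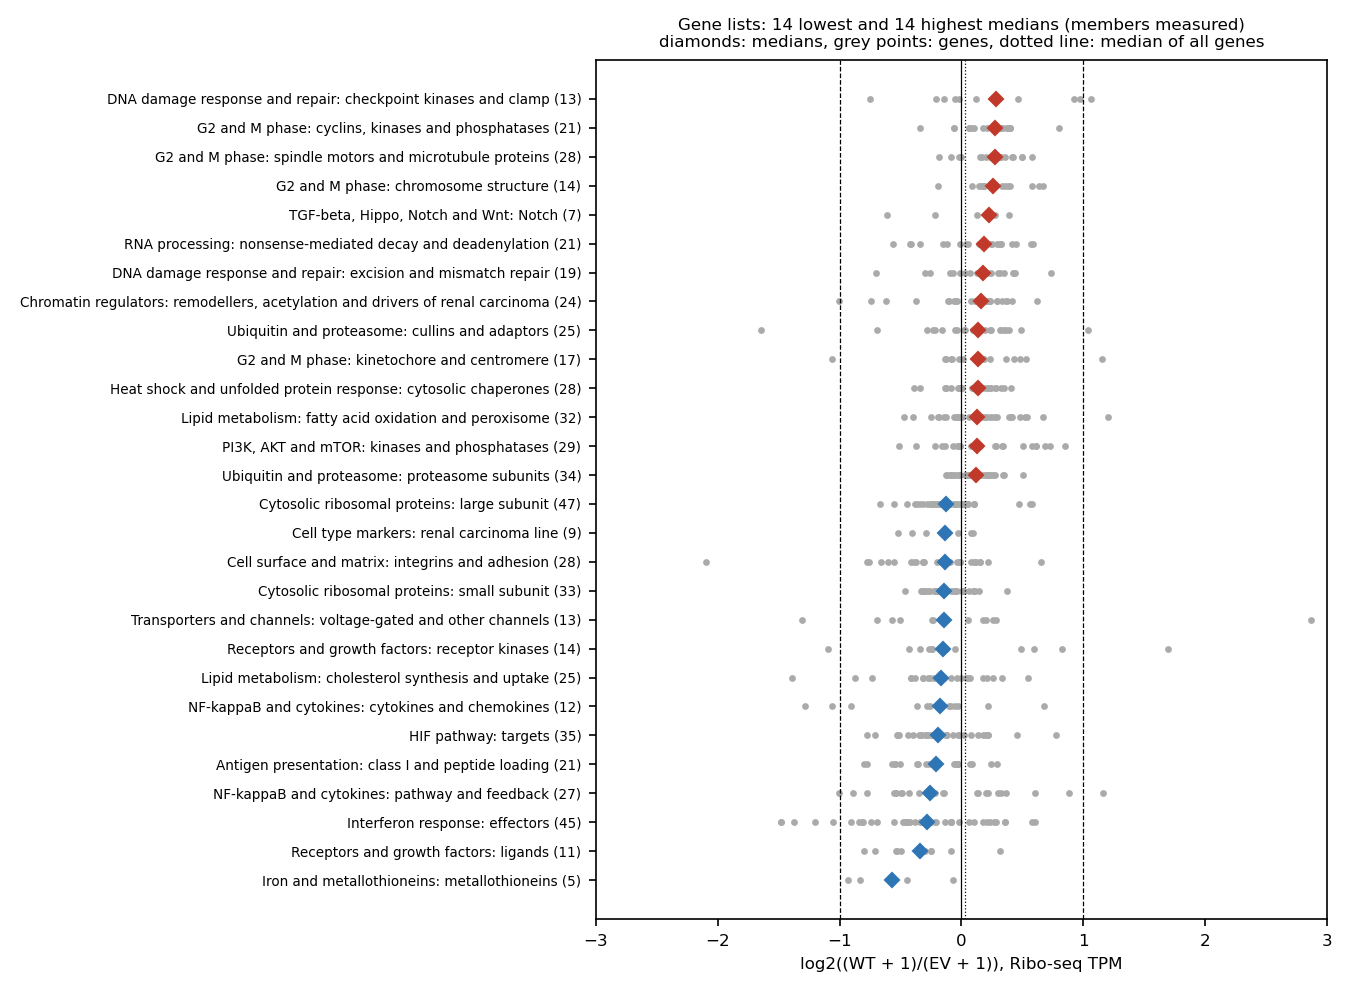
Ratios of single genes (grey points) and list medians (diamonds) for the 14 lists with the highest and the 14 with the lowest medians among those with 5 or more measured members; the dotted line is the median of all genes and dashed lines the 2-fold rule. Medians run from -0.57 for metallothioneins to 0.29 for checkpoint kinases, and no list median comes near the rule.

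DNA damage and repair genes had 37 of 55 above 0 and a median of 0.12. Checkpoint kinases and the checkpoint clamp had 8 of 13 above 0 and a median of 0.29, with RAD9A, a clamp subunit, higher at 4.98 TPM in EV, 11.5 TPM in WT and 1.52 TPM in MT. CHEK1, the kinase that restrains mitotic entry, stood at 49.7 and 54.0 TPM. Excision and mismatch repair genes had 13 of 19 above 0 (0.17). The recombination genes RAD51C and FANCI stood at 19.1 and 32.3 TPM and at 60.7 and 89.1 TPM, in a list with 11 of 16 above 0 (0.09). Targets of p53 had 9 of 21 above 0 (-0.03), with CDKN1A at 134 and 124 TPM.

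Among protein turnover genes, those of the proteasome, the cullin ligases and autophagy had more ratios above 0 than below, and lysosomal genes fewer. Proteasome subunits had 24 of 34 above 0 (median 0.12) and 0 past the rule, with PSMB3 at 790.1 TPM (EV) and 824 TPM (WT). Cullins and other ligase parts had 17 of 25 above 0 (0.14), with ITCH higher, AMBRA1 lower and CUL2, the scaffold of the VHL ligase, at 33.9 and 48.0 TPM. Autophagy genes had 23 of 33 above 0 (0.12), with ATG13 higher and AMBRA1 lower. Their mRNA lay mostly on the other side, with 23 of 33 below 0 and a median of -0.06. The receptor SQSTM1 (p62) stood at 358 and 302 TPM. Lysosomal genes had 10 of 33 above 0 (-0.06), and the protease CTSD stood at 749 and 626 TPM. Nonsense-mediated decay and deadenylation factors had 14 of 21 above 0 (0.18).

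In the translation machinery ribosomal proteins had more ratios below 0 than above, and the medians of the factor lists lay nearer to 0. Large subunit ribosomal proteins had 13 of 47 above 0 (-0.13) and small subunit ones 10 of 33 (-0.14), and the summed levels were 99929 TPM (EV) and 94539 TPM (WT) for the large subunit. RPL23 stood apart at 3972 TPM in EV, 5943 TPM in WT and 4362 TPM in MT (0.58), while RPL37 stood at 8538 and 7124 TPM and RPS25 at 3670 and 2655 TPM. Initiation factors had 21 of 36 above 0 (0.07), with EIF1, which guards start codon choice, at 2762 and 3465 TPM. Factors of ribosome biogenesis had 20 of 45 above 0 (-0.02), although 43 of the 45 lay above 0 in mRNA (0.25). tRNA modification enzymes had 21 of 41 above 0 (0.04). In all of these lists 0 genes passed the rule, beside 1.74% higher and 1.62% lower of all genes and smaller shares at high levels.

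Medians of the mitochondrial gene lists lay near 0. The 13 mitochondrially encoded genes had 4 ratios above 0 and 9 below, with a median of -0.04. MT-CO1 stood at 429 TPM (EV) and 310 TPM (WT). MT-ATP8, at 11621 and 11487 TPM, made up most of the list's sums of 13815 and 13348 TPM. In mRNA 12 of the 13 lay below 0 (-0.24). Complex I had 18 of 38 above 0 (-0.01), and complexes III, IV and V had 21 of 35 (0.09), with UQCRB at 3257 and 4006 TPM. Mitochondrial ribosomal proteins had 30 of 56 above 0 (0.04).

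Metabolic and hypoxia genes are of interest in a line without functional VHL, through which hypoxia-inducible factors are normally degraded. Genes listed as targets of these factors had 10 of 35 above 0 and a median of -0.19, with 0 past the rule. Which factor acts on which of these genes in this line was not tested. Within the list VEGFA lay below 0, whereas LDHA, lactate dehydrogenase (848 TPM in EV, 1163 TPM in WT, 847 TPM in MT), and NDRG1 (646 and 737 TPM) lay above. EPAS1, which encodes the factor HIF-2alpha, stood at 6.32 and 4.996 TPM. Glycolysis genes had 9 of 18 above 0 (-0.05). Cholesterol genes had 8 of 25 above 0 (-0.16), with FDFT1, squalene synthase, at 196 and 147 TPM, FDPS at 123 and 180.1 TPM, and HSD17B7 lower at 1.90 and 0.103 TPM. Fatty acid oxidation and peroxisome genes had 19 of 32 above 0 (0.13), with the peroxin gene PEX10 higher at 0.851 and 3.26 TPM.

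The relatives of PHYHD1 showed no common direction. PHYH stood at 29.5 TPM in EV, 41.7 TPM in WT and 31.3 TPM in MT (0.49). Of 43 other 2-oxoglutarate dioxygenases measured, 17 lay above 0, with a median of -0.05. ALKBH3, which repairs alkylated nucleic acids, stood at 18.3, 31.8 and 32.3 TPM (0.77), and the RNA demethylase gene FTO at 98.9, 99.1 and 103 TPM. The histone demethylase gene KDM2B was higher, at 3.30, 8.85 and 5.88 TPM. The oxygen sensor genes EGLN1 and EGLN3 stood at 15.9 and 10.95 TPM and at 36.9 and 32.2 TPM, and HIF1AN at 20.5 and 26.4 TPM.

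Reference genes gave the size of small offsets at high levels. GAPDH stood at 2801 TPM (EV) and 2836 TPM (WT), PPIA at 7389 and 7646 TPM, and HPRT1 at 99.2 and 126 TPM. ACTB stood at 12118 and 9676 TPM (-0.32) while its mRNA stood at 1619 and 1889 FPKM. CCND1 (cyclin D1) was at 135, 114 and 139 TPM in EV, WT and MT.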

How the data were processed

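Cells of 786-O were treated with cycloheximide (100 µg/ml), RNase I made the footprints, and small RNA libraries were built, per the labels' protocols. Cycloheximide given before lysis can move footprints along an mRNA. The deposited Ribo-seq columns are TPM, since each sums to 1000000. The deposited RNA-seq columns have no unit in the file headers and were read as FPKM from their sums. The submitters' processing notes name hg18. For the aligner, annotation and counting method the sources used here give nothing.

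Of 20307 rows, 605 without a gene name (0.520% of EV and 0.513% of WT footprints) and 7 symbols with several values were left out, leaving 19669 genes. Values were used as deposited with a pseudocount of 1 (Python 3.11.15, pandas 2.3.3). With 1 library per group there was no test and no count model. Read depth is unknown; genes detected in a single library had median levels of 0.123 TPM (EV) and 0.148 TPM (WT), so values near 1 TPM rest on few reads.

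Members and gene lists were chosen with earlier results of these data known, and list counts are descriptions. Genes named are the 20 largest ratios each way at 10 TPM, the 10 each way at 100 TPM, list members past the rule at 10 TPM with up to 4 others (past the rule first, then most abundant), PHYHD1 and references; some genes that this selects are not reported here. Protein sequences were not used here, so related genes were grouped by hand. Readthrough names and RefSeq overlaps came from the reference tables. The procedure was checked on simulated data with counting noise only, at an assumed read depth. That check does not cover other differences between libraries, so it does not show how specific the 2-fold rule is here. Other pseudocounts, minimums, scalings and a 1.5-fold rule were tried.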

Additional observations from a re-analysis of the deposited data

How the results depend on the processing

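With a pseudocount of 5, 30 genes were higher and 15 lower (21 and 9 abundant ones). Most of the 400 genes selected for naming had been within the rule from the start. Of those past it 44, the larger part, no longer passed. A minimum of 10 TPM left 59 higher and 31 lower. Among abundant genes a minimum of 50 TPM left 8 higher and 2 lower, and a 1.5-fold rule gave 266 and 203. Medians turned sign at a minimum of 10 TPM for m6A and microRNA machinery (-0.022) and for voltage-gated and other channels (0.176); fewer genes entered. The ligand median became -0.53 there. The counts stayed within 1.5 times under a pseudocount of 0.5, no minimum, either rescaling of WT (median shift 0.03) and without copies and parts of readthrough names (53 and 25 abundant genes). GOLGA2 alone left the rule under rescaling (0.98 in both). The planned marking of near-identical proteins was not run, and the hand-made list of copies took its place. No paired analysis was possible because each group has 1 library. Depth limits genes under 10 TPM.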
